A study of Mus musculus with 6 samples.

Results

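Tyrosine and tryptophan are broken down mainly in hepatocytes, and 8 enzymes of these routes are described here across a comparison of mouse livers. The members were taken by symbol, 4 from the tyrosine route (Tat, Hpd, Hgd and Fah) and 4 from the kynurenine route of tryptophan (Tdo2, Kmo, Kynu and Haao), and all 8 had a row among the 16426 genes of the authors' deposited table. The labels describe 6 liver RNA samples of male C57/BL mice, 3 of a normal group that received saline and 3 of a group that received 20% carbon tetrachloride (CCl4), a solvent that injures hepatocytes, over 10 weeks to bring about fibrosis. Mice given CCl4 together with the flavonoid didymin belong to the design, but the labels describe no sample of them.

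The single deposited table sets 3 libraries named ly_A against 3 named ly_B. These names occur in no sample label, so neither group of libraries can be assigned to normal, CCl4 or didymin mice. No difference below is stated as an effect of CCl4. Columns of single libraries were left out by choice, because a column that matches no labelled sample may hold a sample that the labels do not describe. Each result is therefore the fold change of ly_A over ly_B with its p per the authors' deposited table, without a standard deviation or a value per library. A gene is said to be called, or higher in ly_A or ly_B, where its adjusted p per the authors' deposited table was under 0.05.

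Tetrahydrobiopterin is the cofactor of the enzymes that hydroxylate aromatic amino acids. In its breakdown tyrosine is transaminated, oxidised by successive iron-dependent dioxygenases, isomerised and finally cleaved to fumarate and acetoacetate, which feed energy metabolism. Tryptophan is opened by a haem dioxygenase to formylkynurenine, and the kynurenine made from it is hydroxylated, cleaved and opened again on the way to quinolinate, a precursor of NAD. Loss of the last tyrosine enzyme causes hereditary tyrosinaemia with liver injury, and the first enzymes of both routes are textbook targets of glucocorticoid hormones.

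Of the 8 enzymes, 5 were higher in ly_A and 0 in ly_B per the authors' deposited table, where 18.1% of 14114 tested genes were higher in ly_A and 17.7% in ly_B. The called enzymes were Hpd, Fah, Kynu, Haao and Kmo, with differences between 1.81-fold and 3.05-fold per the authors' deposited table. The log2 fold change was above 0 for all 8 per the authors' deposited table, as it was for 53.1% of tested genes. The median log2 fold change of the 8 was 1.13 per the authors' deposited table, beside 0.07 over all tested genes. With at least a 2-fold difference as well, 4 of the 8 were called higher in ly_A per the authors' deposited table, beside 10.9% of tested genes. In bulk liver RNA, fewer hepatocytes and less of a transcript in each hepatocyte cannot be told apart.

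**Figure D1:**
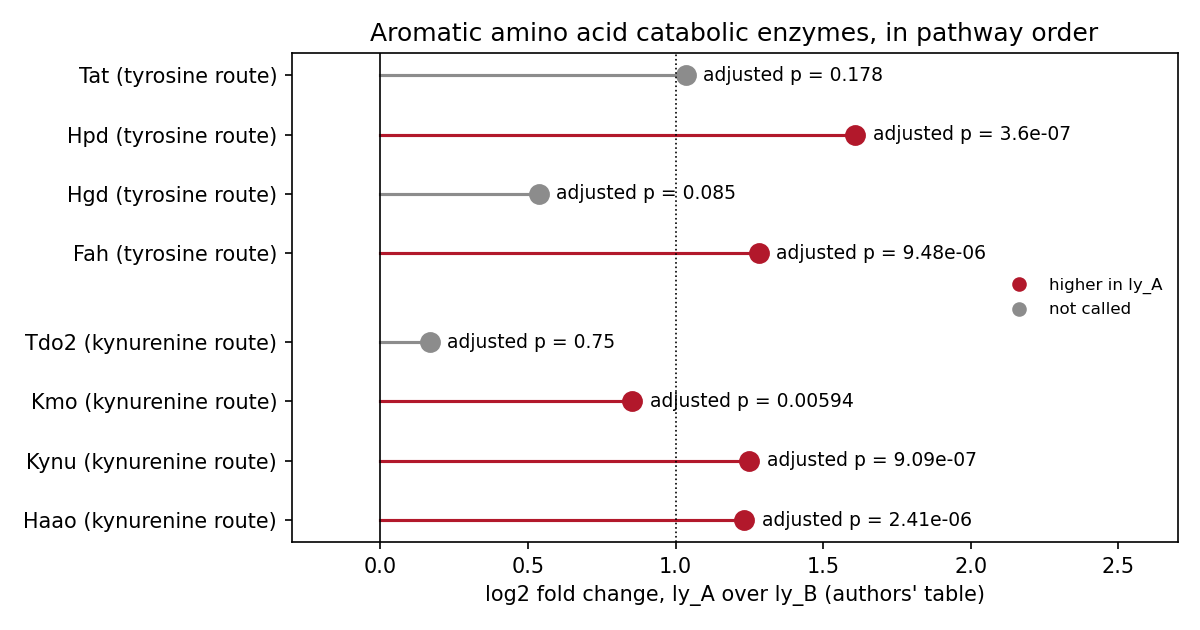
Log2 fold change of ly_A over ly_B per the authors' deposited table for each of the 8 enzymes, in pathway order within the tyrosine and the kynurenine route, with the adjusted p beside each point and a dotted line at 2-fold. Red points are called higher in ly_A and grey points are not called. Hpd lies farthest to the right at 1.61, and Tdo2, at 0.17, lies nearest to 0.

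Within the tyrosine route Hpd and Fah passed, and Tat and Hgd did not. Tat, the tyrosine aminotransferase, had a log2 fold change of 1.03 per the authors' deposited table, a 2.05-fold difference that did not pass (p = 0.0904, adjusted p = 0.178). Of the 567 other tested genes within 0.1 of this log2 value, 438 had a smaller p per the authors' deposited table. The estimate for Tat was thus less precise than that of most genes with a like difference, and how its libraries spread was not examined.

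Hpd, the dioxygenase that makes homogentisate, had the largest difference of the 8, with a log2 fold change of 1.61 or 3.05-fold per the authors' deposited table (adjusted p = 3.6e-07). Only 8.24% of tested genes had a higher log2 fold change per the authors' deposited table. Hgd opens the ring of homogentisate, and its loss causes alkaptonuria. Its log2 fold change was 0.54 per the authors' deposited table, 1.45-fold, with a p of 0.0351 that did not pass after adjustment (adjusted p = 0.085). Fah, which cleaves fumarylacetoacetate in the last step, was 2.43-fold higher in ly_A per the authors' deposited table (log2 fold change 1.28, adjusted p = 9.48e-06). The fold changes of neighbouring steps were not tested against each other.

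Within the kynurenine route the entry enzyme did not pass, and the 3 later members, Kmo, Kynu and Haao, did. Tdo2, the tryptophan dioxygenase of hepatocytes, had the smallest difference of the 8, with a log2 fold change of 0.17 or 1.12-fold per the authors' deposited table (p = 0.642, adjusted p = 0.75). Of tested genes, 45.6% had a higher log2 fold change than Tdo2 per the authors' deposited table. Kmo, the mitochondrial kynurenine hydroxylase, was 1.81-fold higher in ly_A per the authors' deposited table (log2 fold change 0.85, adjusted p = 0.00594).

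Kynu, the kynureninase that releases alanine, was 2.38-fold higher in ly_A per the authors' deposited table (log2 fold change 1.25, adjusted p = 9.09e-07). Haao, the dioxygenase that opens hydroxyanthranilate, was 2.35-fold higher in ly_A per the authors' deposited table (log2 fold change 1.23, adjusted p = 2.41e-06). The fold changes of these consecutive enzymes lay close together, and their difference was not tested. Among other tested genes within 0.1 of the log2 value of each, 8.49% had a smaller p than Kynu and 10.8% a smaller p than Haao per the authors' deposited table. Both estimates were therefore among the more precise for their size, in contrast to that of Tat.

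**Figure D2:**
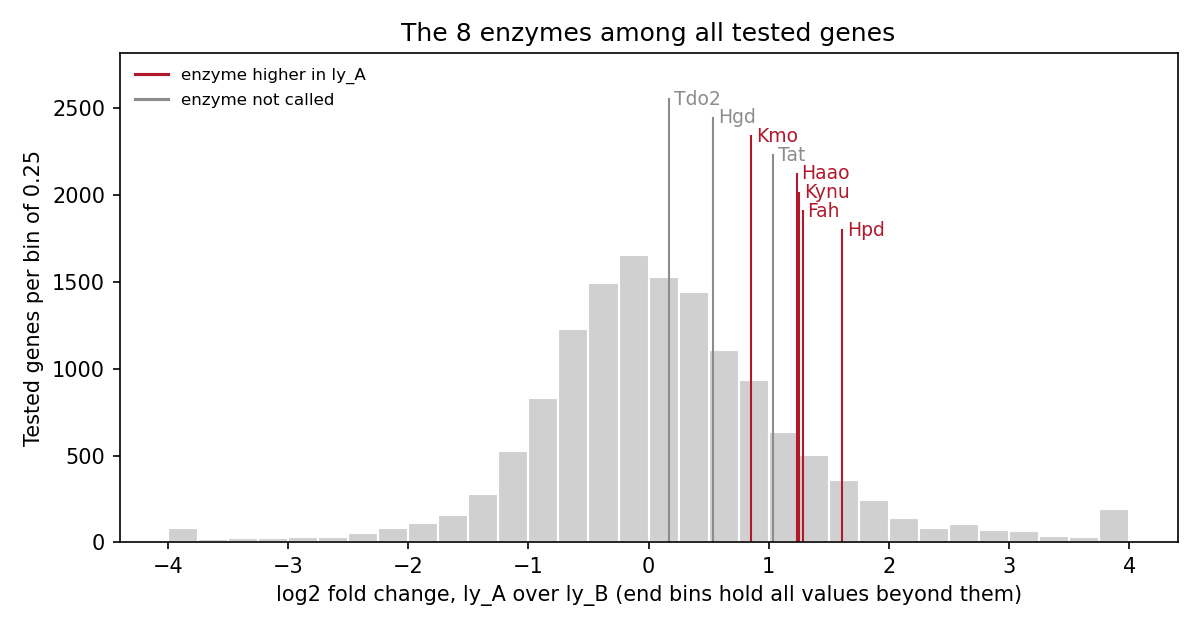
Number of tested genes in bins of 0.25 of the log2 fold change of ly_A over ly_B per the authors' deposited table, with a vertical line at the value of each of the 8 enzymes (red, called higher in ly_A; grey, not called). The lines run from 0.17 for Tdo2 to 1.61 for Hpd, all right of the median of all tested genes at 0.07.

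The gene models of the 8 enzymes are alike in size. The principal coding sequences in GENCODE M21 run from 286 codons in 10 exons for Haao to 479 codons in 15 exons for Kmo, with Hpd at 393 codons and Tat at 454. No member lies on the same chromosome as another among the 7 with a promoter window.

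The stretches of DNA just upstream of an annotated start are shown for 4 of these genes. The letters behind the counts of motifs below can thus be read. The sequences are RefSeq promoter windows of build GRCm38.p6, limited to the 250 bases before the annotated start and to bases outside every exon of GENCODE M21. Hpd and Fah were taken as called members, and Tat and Hgd were added as members that were not called, a choice made after the values were seen. Capitals mark any match, on either strand, to the motifs counted after them. The Hpd window lies at chr5:123182728-123182973, minus strand, and its last 4 bases before the start were left off because they fall in an annotated Hpd exon. The Fah window lies at chr7:84605943-84606192, minus strand, and overlaps the GENCODE M21 gene body of Fah itself, but none of its exons. The Tat window lies at chr8:109990186-109990435, plus strand, and the Hgd window at chr16:37579903-37580152, plus strand.
Hpd: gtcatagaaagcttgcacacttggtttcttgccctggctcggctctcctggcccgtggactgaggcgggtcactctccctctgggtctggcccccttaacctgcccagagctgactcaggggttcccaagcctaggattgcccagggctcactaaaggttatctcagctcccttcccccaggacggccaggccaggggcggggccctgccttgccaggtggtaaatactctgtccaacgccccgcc
Fah: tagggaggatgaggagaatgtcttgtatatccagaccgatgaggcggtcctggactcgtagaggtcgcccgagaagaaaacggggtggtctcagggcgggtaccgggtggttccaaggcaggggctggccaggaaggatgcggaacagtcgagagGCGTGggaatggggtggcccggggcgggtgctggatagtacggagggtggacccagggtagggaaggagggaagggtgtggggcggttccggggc
Tat: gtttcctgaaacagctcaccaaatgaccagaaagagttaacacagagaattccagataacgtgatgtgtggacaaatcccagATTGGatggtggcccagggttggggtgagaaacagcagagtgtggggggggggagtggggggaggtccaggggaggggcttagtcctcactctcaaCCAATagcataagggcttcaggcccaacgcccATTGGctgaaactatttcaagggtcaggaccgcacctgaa
Hgd: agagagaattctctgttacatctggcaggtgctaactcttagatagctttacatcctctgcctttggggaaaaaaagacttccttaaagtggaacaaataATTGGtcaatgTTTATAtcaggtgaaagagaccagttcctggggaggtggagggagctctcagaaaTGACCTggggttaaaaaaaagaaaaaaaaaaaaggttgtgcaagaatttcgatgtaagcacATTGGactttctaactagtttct

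The GC content of the 250 bases was 62.8% for Hpd and 64.4% for Fah, against 53.6% for Tat, 38.8% for Hgd and a median of 52.4% over 32851 windows. The Fah window held 16 CpG dinucleotides and the Hgd window 1, with a median of 6 over all windows. The Hpd window overlapped gene bodies of Psmd9 on the opposite strand and Gm26745 on its own strand. The other windows were 46.4% GC for Tdo2, 42.8% for Kmo and 58.4% for Haao, so called members stood on both sides of the median. Their windows are not printed, because annotated exons cover all 250 bases for Tdo2 and Haao and 197 of the 250 for Kmo. Kynu had no window in the RefSeq table.

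Of the 7 member windows, those of Tat, Hgd and Tdo2 held CCAAT, the CCAAT box, as did 33.8% of all windows. Overlapping matches were each counted. TATAAA, the letters of the TATA box, stood in the windows of Tdo2 and Hgd, and in 12.4% of all windows. The match began 229 bases upstream of the start in Tdo2, and 139 bases upstream on the reverse strand in Hgd. Whether either acts as a TATA box was not tested. AGGTCA, the half-site of nuclear receptors, stood in those of Tdo2, Hgd and Haao, and in 14% of all. GCGTG, the core bound by the aryl hydrocarbon receptor, stood in those of Fah, Tdo2 and Haao, and in 28.2% of all. TGTTCT, the half-site of the glucocorticoid receptor, was found only in the Haao window among the 7, and in 16.1% of all. No member window held TTGCAA, a C/EBP core, or TGTTTAC, a forkhead motif, which occurred in 5.34% and 3.17% of all windows. These matches are a description of letters, and no binding was measured.

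Of 5 other tested enzymes at the entry and at branches of the tyrosine route, 1 was higher in ly_A and 0 in ly_B per the authors' deposited table, a share of 20% near the 18.1% of all tested genes. The called gene was Gstz1, the maleylacetoacetate isomerase between Hgd and Fah, with a log2 fold change of 0.86 per the authors' deposited table (adjusted p = 0.000559). Got2, a mitochondrial aspartate aminotransferase, stood at 0.40 per the authors' deposited table and did not pass (adjusted p = 0.141).

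Genes listed for tetrahydrobiopterin supply included a regulator and a co-chaperone beside enzymes. They were mostly higher in ly_A, at 6 of 9 tested with 1 higher in ly_B per the authors' deposited table. This share of 66.7% higher in ly_A stood beside 18.1% of all tested genes, of which 17.7% were higher in ly_B. Pts, the pyruvoyltetrahydropterin synthase, had the largest log2 fold change among them at 1.67 per the authors' deposited table (adjusted p = 5.42e-10). The recycling enzymes Pcbd2, Pcbd1 and Qdpr stood at 1.29, 0.87 and 0.86 per the authors' deposited table. Gch1, which begins the synthesis, and its regulator Gchfr stood at 0.75 and 0.84 per the authors' deposited table, with 0.0271 for Gch1 the largest adjusted p of the called genes of this list. Dnajc12, a co-chaperone, was higher in ly_B at -1.50 per the authors' deposited table (adjusted p = 6.79e-06). Spr, the sepiapterin reductase, missed the threshold per the authors' deposited table (p = 0.999).

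Around the kynurenine route, 7 of 11 tested enzymes were higher in ly_A and 1 in ly_B per the authors' deposited table. Higher in ly_A were thus 63.6%, beside 18.1% of all tested genes, of which 17.7% were higher in ly_B. Afmid, the formamidase that acts between Tdo2 and Kmo, had a log2 fold change of 1.98 per the authors' deposited table (adjusted p = 2.13e-06), larger than any of the 8 members. Ido2, an enzyme related in function to Tdo2, stood at 1.33 per the authors' deposited table (adjusted p = 0.00686). The side branches from kynurenine and aminocarboxymuconate semialdehyde were represented by Aadat at 1.11, Acmsd at 1.06 and Aldh8a1 at 0.57 per the authors' deposited table. The amine-metabolising enzymes split, with Inmt at 1.66 and Maob at 0.70 higher in ly_A and Maoa at -1.08 higher in ly_B per the authors' deposited table. Kyat1 at 0.74 (adjusted p = 0.0622) and Kyat3 at -0.32 missed the threshold per the authors' deposited table.

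The kynurenine route leads to NAD. Of 10 tested genes of NAD and nicotinamide metabolism, 3 were higher in ly_A and 0 in ly_B per the authors' deposited table. Higher in ly_A were thus 30%, beside 18.1% of all tested genes, of which 17.7% were higher in ly_B. The called genes were Nmrk1 at 1.65, Naprt at 1.60 and Nadsyn1 at 0.76 per the authors' deposited table. They act on nicotinamide riboside, nicotinate and the final amidation. Qprt, which takes quinolinate into NAD and was picked out after its value was seen, stood at 0.12 per the authors' deposited table and did not pass (adjusted p = 0.663). Nnmt at 0.59 (adjusted p = 0.0543) and Nampt at 0.36 (adjusted p = 0.218) missed the threshold per the authors' deposited table.

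Of 9 tested genes of amino acid transport, 1 was higher in ly_A and 1 in ly_B per the authors' deposited table. Not all of them are carriers of aromatic amino acids. Their median log2 fold change was -0.50. At 11.1%, the share higher in ly_A stood beside 18.1% of all tested genes, of which 17.7% were higher in ly_B. Slc16a10, a carrier selective for aromatic amino acids, was higher in ly_A at 0.96 per the authors' deposited table (adjusted p = 0.00883). Slc3a2, the heavy chain shared by several exchangers, was higher in ly_B at -1.67 per the authors' deposited table (adjusted p = 3.91e-08). Slc43a1 at 0.93 (adjusted p = 0.0666) and Slc38a2 at -0.50 (adjusted p = 0.0577) missed the threshold per the authors' deposited table.

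**Figure D3:**
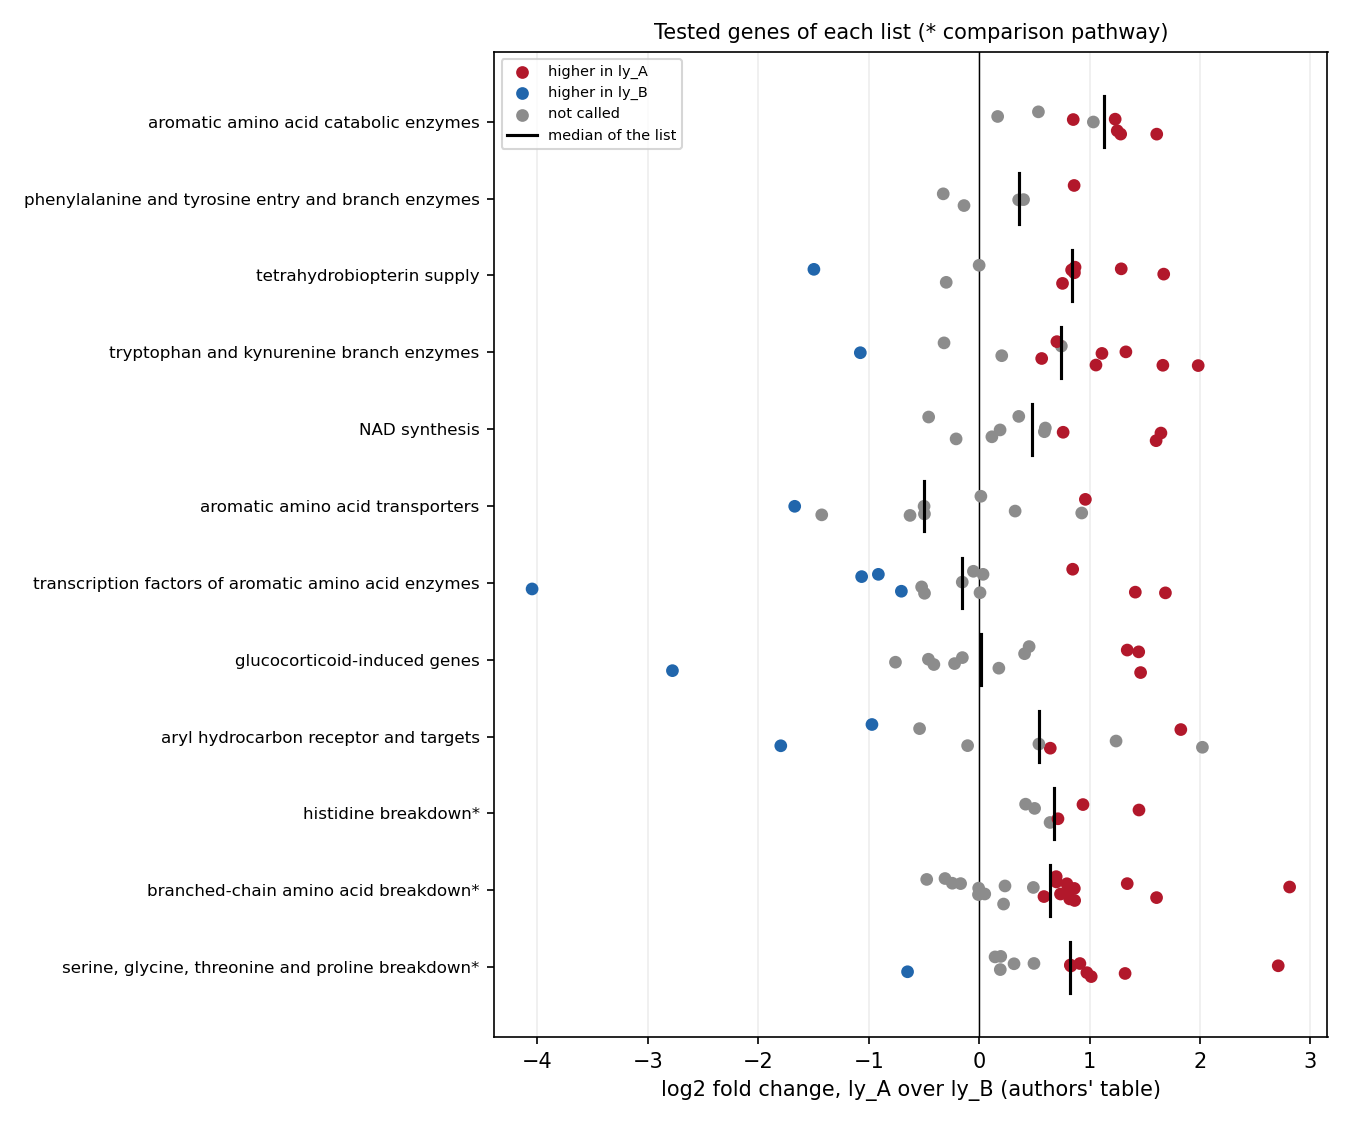
Log2 fold change of ly_A over ly_B per the authors' deposited table for each tested gene of the 8 enzymes, of 8 lists of related genes and of 3 comparison pathways marked with an asterisk. Points are red for genes called higher in ly_A, blue for ly_B and grey for genes not called, spread vertically for legibility, and the black bar is the median of the list, which is 1.13 for the 8 enzymes and -0.50 for the transporters.

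Transcription factors that act on these genes in hepatocytes were called in both directions, 3 of 13 higher in ly_A and 4 in ly_B per the authors' deposited table. The share higher in ly_A, 23.1%, was near the 18.1% of all tested genes, of which 17.7% were higher in ly_B. Cebpb at 1.69, the nuclear receptor Nr1i3 at 1.41 and the coactivator Ppargc1a at 0.85 were higher in ly_A per the authors' deposited table. Onecut1 at -4.05, Foxa3 at -1.06 and the glucocorticoid receptor Nr3c1 at -0.91 were among those higher in ly_B per the authors' deposited table. Creb1 at -0.52 and Foxa1 at -0.49 missed the threshold per the authors' deposited table (adjusted p = 0.0564 and 0.191).

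Of 12 genes that glucocorticoids induce, 3 were higher in ly_A and 1 in ly_B per the authors' deposited table. At 25%, the share higher in ly_A was near the 18.1% of all tested genes, of which 17.7% were higher in ly_B. Zbtb16 at 1.46, Tsc22d3 at 1.45 and Dusp1 at 1.34 were higher in ly_A, and Lcn2, also an acute phase gene, at -2.78 in ly_B per the authors' deposited table. Klf9 at -0.76 and Pck1 at 0.45 missed the threshold per the authors' deposited table (adjusted p = 0.1 and 0.123).

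Kynurenine is a ligand of the aryl hydrocarbon receptor. Of 9 tested genes of that receptor and its targets, 2 were higher in ly_A and 2 in ly_B per the authors' deposited table. At 22.2%, the share higher in ly_A was near the 18.1% of all tested genes, of which 17.7% were higher in ly_B. Cyp1a2 at 1.83 and the receptor Ahr at 0.64 were higher in ly_A, and Nqo1 at -1.80 and Ugt1a6b at -0.97 in ly_B per the authors' deposited table. Ugt1a6b shares exons with other Ugt1a genes, so its reads may not be its own. Cyp1a1 at 1.24 (adjusted p = 0.103) and Tiparp at -0.54 (adjusted p = 0.0739) missed the threshold per the authors' deposited table.

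Breakdown pathways of other amino acids also held many genes higher in ly_A. Of 6 genes of histidine breakdown and folate-linked steps, 3 were higher in ly_A and 0 in ly_B per the authors' deposited table, led by Amdhd1 at 1.45, Aldh1l1 at 0.94 and Mthfd1 at 0.71. Of 22 genes of branched-chain amino acid breakdown, 12 were higher in ly_A and 0 in ly_B per the authors' deposited table, with the phosphatase Ppm1k at 2.81, Hsd17b10 at 1.61 and Mcee at 1.34. Of 13 tested genes of serine, glycine, threonine and proline breakdown, 7 were higher in ly_A and 1 in ly_B per the authors' deposited table, with Oat at 2.71, Prodh2 at 1.32 and Gcat at 1.01. The gene higher in ly_B was Gldc at -0.65 per the authors' deposited table, named after its value was seen. The shares higher in ly_A were 50%, 54.5% and 53.8%, beside 62.5% for the 8 aromatic enzymes, counted from the authors' deposited table. Over all tested genes, 18.1% were higher in ly_A and 17.7% in ly_B. The difference between these pathways was not tested, and nothing here sets the 8 enzymes apart from other amino acid breakdown.

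Cell type markers were also called between the libraries. Over all tested genes, 18.1% were higher in ly_A and 17.7% in ly_B per the authors' deposited table. Levels were not used, so the labelled tissue was not checked against its markers. Of 7 tested hepatocyte markers, 3 were higher in ly_A and 2 in ly_B per the authors' deposited table, with Apoa1 at 1.22, Apob at -1.07 and Ttr at 1.07 the largest called differences. Kmo and Kynu transcripts also occur in macrophages, and of 11 markers of macrophages and Kupffer cells 5 were higher in ly_A and 1 in ly_B per the authors' deposited table. Timd4 at 3.04 and Clec4f at 2.63, markers of resident Kupffer cells, were higher in ly_A, and Itgam at -2.14 was higher in ly_B per the authors' deposited table. Of 7 dendritic cell markers, 3 were higher in ly_A and 0 in ly_B per the authors' deposited table. The called genes were Xcr1, an 8.02-fold difference, Clec9a at 2.08 and Zbtb46 at 0.83. The part of these cells in the differences of Kmo and Kynu was not tested, and the levels of the markers were not used.

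Markers of sinusoidal endothelium were called higher in ly_A at 5 of 6, and 0 in ly_B, per the authors' deposited table. Stab2 at 1.77, Kdr at 1.25 and Clec4g at 1.20 had the largest differences. Shares over all tested genes were 18.1% higher in ly_A and 17.7% in ly_B per the authors' deposited table. Lymphocyte markers were higher in ly_A at 5 of 7, and 0 in ly_B, per the authors' deposited table, led by Nkg7 at 1.99 and Cd3e at 1.80. The called genes include Ptprc at 0.86, which other leukocytes also express. Stellate cell and cholangiocyte markers had 1 called gene each, of 7 and 5 tested. These were Pdgfrb at -0.67 and Sox9 at -1.68, both higher in ly_B per the authors' deposited table. None of 4 tested neutrophil markers was called per the authors' deposited table. Among all lists with no call in one direction, only Dld of branched-chain breakdown at -0.47 and the cholangiocyte marker Krt19 at 0.98 had an unadjusted p under 0.05 in that direction (p = 0.0439 and 0.0432) per the authors' deposited table (the submitters' processing notes name DESeq2). The part of these cell types in the differences of the 8 enzymes was not tested.

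**Figure D4:**
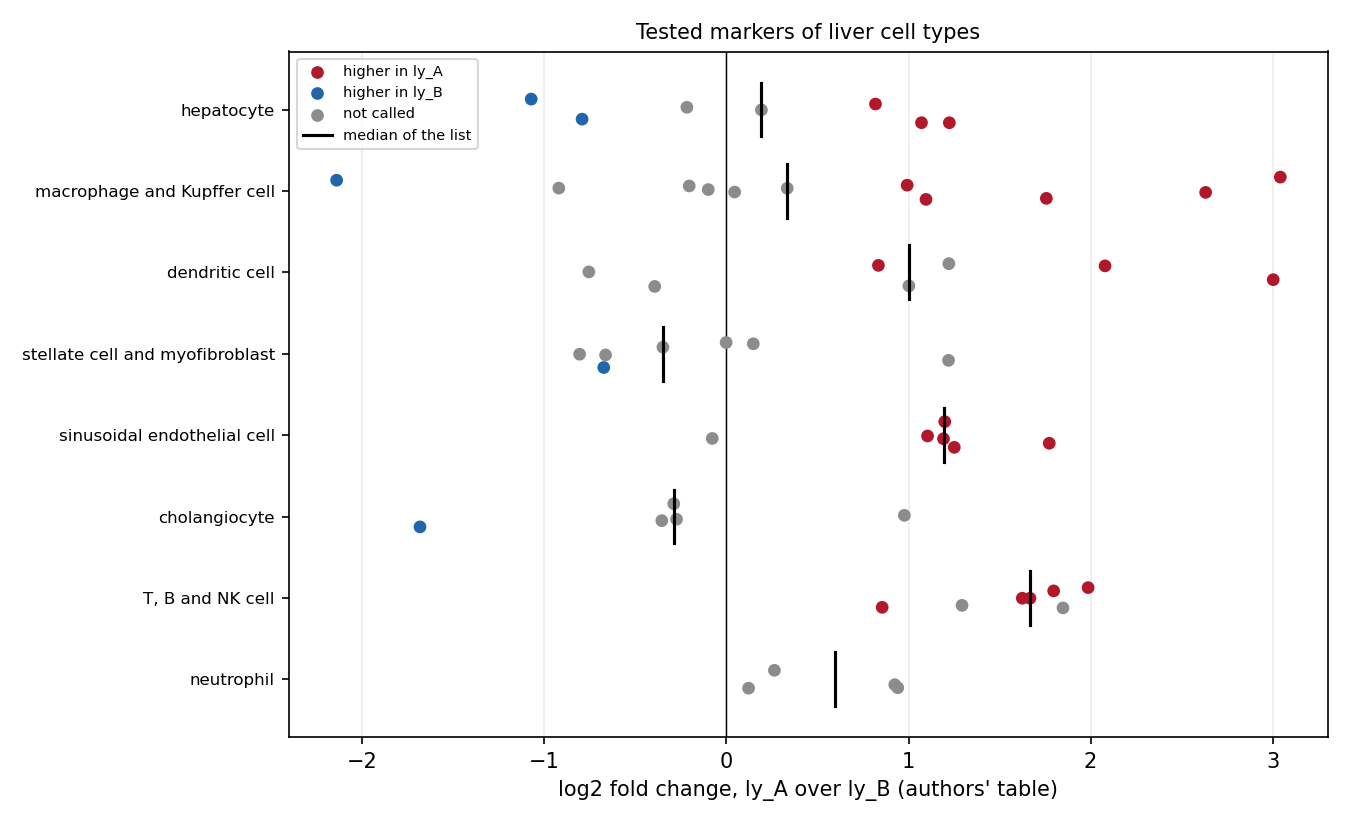
Log2 fold change of ly_A over ly_B per the authors' deposited table for each tested marker of 8 groups of liver cell types, red where called higher in ly_A, blue where called higher in ly_B and grey where not called, with a black bar at the median of the list. The macrophage markers run from -2.14 for Itgam to 3.04 for Timd4, and the hepatocyte markers from -1.07 for Apob to 1.22 for Apoa1.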

How the data were processed

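Liver RNA of 6 samples, 3 in each of 2 groups, was sequenced from total RNA with a NEBNext kit, per the labels' protocols. The authors deposited a table with a log2 fold change, a p-value and an adjusted p-value per gene symbol, and the submitters' processing notes name DESeq2 and mm9 without a version. Which aligner, counter and annotation they used is not given in the sources used here. For each gene the log2 sign is read as ly_A over ly_B from the name of the comparison. The 18 columns of single libraries match no label and were not used, so depth was not examined. An adjusted p of exactly 1 stood in 2312 rows, which were taken as not tested, since the deposited values of the other 14114 equal a Benjamini-Hochberg adjustment over those alone (largest relative difference 9.47e-13). The labels number the samples of a group but do not say that each came from another animal, so the p-values measure only the spread between these libraries, which may be technical.

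No test was run beyond the authors' own. The members and lists were chosen with earlier results of these data known. Named were the 8 members; in related lists, every called gene and the 2 uncalled genes of smallest p; elsewhere, the 3 called genes of largest difference. Some genes and 1 motif that these rules take are not reported here. Of 201 listed symbols, 11 had no row and are not analysed here. Promoters came from RefSeq windows (GRCm38.p6) and exons and gene types from GENCODE M21, where 99.8% of the symbols were found; its build is not mm9, so no coordinates of the table are given. The motif search used the 250 bases before each start. The adjustment and the motif search were tested on simulated data (Python 3.11.15, pandas 2.3.3, numpy 2.4.6). Alternatives were a stricter threshold, a 2-fold minimum, and adjustment over all rows, by Bonferroni, or over protein-coding genes.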

Additional observations from a re-analysis of the deposited data

How the results depend on the processing

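The same 5 enzymes were called higher in ly_A per the authors' deposited table at an adjusted p under 0.01, with adjustment over all 16426 rows and over the 14047 protein-coding genes tested, beside 12.3%, 15% and 18.1% of all genes in the adjustment. Without Kmo, the other 4 remained with a 2-fold minimum and with a Bonferroni adjustment over tested genes, beside 10.9% and 4.58% of tested genes. None of the 8 could be called higher in ly_B under these 5 settings, since all 8 log2 fold changes were above 0 and no setting changes a sign. Kmo, at 1.81-fold, lies under the 2-fold minimum. The related lists held 78 tested genes and the comparison pathways 41. For both together, the number higher in ly_A fell from 48 to 22 with a 2-fold minimum and to 15 with Bonferroni. Over all tested genes that share fell from 18.1% to 10.9% and 4.58%. The number higher in ly_B fell from 11 to 7 under each, while the share over all tested genes fell from 17.7% to 7.85% and 4.81%. These rules are stricter by construction. No paired analysis was possible because the replicate numbers of the labels cannot be tied to library columns. No library was left out in turn, since single-library columns were left out by choice. What depth limits was not examined.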
